A study of Mus musculus with 8 samples.

Results

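Long intergenic noncoding RNAs (lincRNAs) are transcripts with no known protein product that lie between protein-coding genes. Many are capped and spliced like messenger RNAs, many stay in the nucleus, and a number are made from the strand opposite to a gene. In the brain they include Malat1, Neat1 and the hosts of small nucleolar RNAs and microRNAs, but most lincRNA candidates are known only by the stretch of genome from which they were predicted. The array examined here carries 16181 probes of this kind, 29.1% of its 55681 probes that are not controls. Each is named by a chromosome, a start, an end and the letter F or R, and all probes of this form were taken. The annotation in the array files calls them lincRNA, forward strand for F and reverse strand for R.

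RNA came from the whole dissected hypothalamus (HT) of 8 adult male C3H/HeN mice, 1 array per mouse. All 8 mice had been trained in operant cages for a palatable milk reward and were fasted before the brain was taken. The 4 mice of the group labelled Stress had undergone maternal separation (MS) from postnatal day 2 to 14 while their dam was exposed to unpredictable stress, and the 4 mice of the group labelled Ctrl had been left undisturbed. Each p-value reflects how much these 8 animals varied. The number before the dot in the name of a mouse, shared by 3 control mice and by 3 MS mice, has no stated meaning, and if it stands for a litter or cage the mice are not independent. In such bulk tissue, fewer cells of a type and less RNA per cell cannot be told apart. Values per mouse are given in a fixed order, which is 8.2, 8.4, 6.2 and 8.5 for the control mice and 5.3, 7.2, 7.1 and 7.6 for the MS mice. Signals are log2 values relative to the 75th percentile of the array, and they hold the affinity of the probe as well as the amount of RNA, so that a brighter probe does not by itself stand for a more abundant transcript.

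The arrays lay on 1 slide in 2 rows, each with 2 control and 2 MS mice. The array of MS mouse 7.6 had the lowest 75th percentile, 499 against 751 to 902 in the other 7. All 10 markers of the hypothalamus, among them Pomc, Agrp, Avp, Oxt and Hcrt, were well above background on all 8 arrays. So were 7 of 8 pituitary markers, while Pou1f1 was above background on 1 array. The mean log2 signal of all 8 pituitary markers was 2.34 in control mouse 6.2. It was between -0.83 and 0.18 in the other control mice and between -0.93 and -0.18 in the MS mice. Hcrt, the orexin precursor gene of the lateral hypothalamus, read 3.46 and 3.54 in MS mice 5.3 and 7.2 and 5.51 to 6.65 in the other 6 mice. The part of pituitary RNA and of dissection in the values below was not tested.

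The probes named 3540 intervals on 20 chromosomes, of which 1251 had probes for the forward strand only, 1222 for the reverse strand only and 1067 for both. An interval spanned from 62 bases to 7128 kb, with a median of 7.316 kb, and each strand of an interval had 1 to 10 probes, with a median of 3. The position of 16063 probes is given on the mouse build mm9, and all of them lay inside the interval of their name. 118 probes have no position there. Every one of the 8140 positioned F probes ran with the chromosome and every one of the 7923 R probes ran against it. In 2707 intervals the array had no probe with a gene or transcript name, and 833 intervals held at least 1. Names that begin with TC or NAP and a number, and probe numbers that serve as names, were not counted as such.

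Each probe is 60 bases long. Probes of 7 of the 8 intervals that were brightest among those detected on all 8 arrays are shown first, since they are where the signal was strongest. Capitals mark runs of 6 or more consecutive G or C bases.
chr19:5801802-5802597_R: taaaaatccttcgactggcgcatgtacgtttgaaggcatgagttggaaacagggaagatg
chr14:78924115-78938125_F: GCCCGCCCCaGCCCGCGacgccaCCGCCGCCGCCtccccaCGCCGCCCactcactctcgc
chr17:17481706-17482457_R: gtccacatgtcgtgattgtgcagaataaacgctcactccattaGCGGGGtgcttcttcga
chr12:73838608-73862621_R: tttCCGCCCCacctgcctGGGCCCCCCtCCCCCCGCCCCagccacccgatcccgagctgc
chr11:22681800-22707775_R: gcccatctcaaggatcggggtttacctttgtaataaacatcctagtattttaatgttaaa
chr6:83368261-83407280_F: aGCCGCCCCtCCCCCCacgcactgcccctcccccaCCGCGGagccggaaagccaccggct
chr17:39982023-39983277_F: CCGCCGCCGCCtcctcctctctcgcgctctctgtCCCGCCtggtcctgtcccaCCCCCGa

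The brightest, chr19:5801802-5802597_R, read 7.84, 7.89, 7.78 and 7.84 in the control mice and 7.61, 7.78, 7.77 and 7.83 in the MS mice. It lies inside the reverse-strand transcript that the array calls NEAT2, an older name of Malat1, an abundant nuclear noncoding RNA. The second, chr14:78924115-78938125_F, averaged 7.66 ± 0.19 (SD, n = 8), with the highest value, 8.09, in MS mouse 7.6. The probe of chr17:17481706-17482457_R varied least, from 6.92 to 7.04. Among these 7 probes, 4, those of chr14, chr12, chr6 and chr17:39982023-39983277_F, held 75 to 83.3% G and C. Of all 35 coordinate-named probes with a mean of at least 5, 10 held at least 70% G and C (28.6%), a content reached by 165 of the 16181 probes (1.02%). Among the other probes, 8 of 1509 that bright did (0.53%), beside 72 of all other probes (0.182%). The part of base composition in the brightness of single probes was not tested.

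Detection was counted as a signal well above background by the scanner software, and a probe detected on at least 4 of the 8 arrays was kept for the comparison of groups. This held for 8456 coordinate-named probes (52.3%) and for 28857 of the 39500 other probes (73.1%). All 8 arrays detected 6516 coordinate-named probes (40.3%), none detected 5384 (33.3%), and 4281 were detected on 1 to 7 arrays. Of the other probes, 66.5% were detected on all 8 arrays and 19.3% on none. No coordinate-named probe was saturated. The coordinate-named probes were thus more often below background than the rest of the array.

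**Figure D1:**
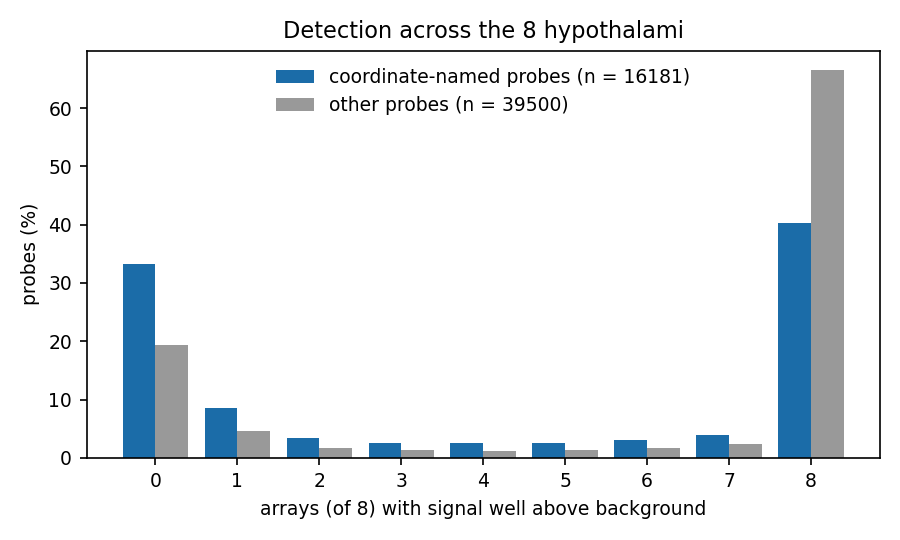
Share of probes (%, vertical axis) by the number of the 8 arrays on which the signal was well above background (horizontal axis), for the 16181 coordinate-named probes and the 39500 other probes. The coordinate-named probes have 33.3% on no array and 40.3% on all 8, the other probes 19.3% and 66.5%.

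The number of coordinate-named probes detected per mouse was 9514, 8518, 8539 and 7421 in the control group and 8957, 9055, 7851 and 7046 in the MS group. The groups overlapped, with means of 8498 ± 855 and 8227 ± 958 (SD, n = 4 each, exact permutation test, two-sided, p = 0.686, where 0.0286 is the smallest p possible). Within slide row 1 the means were 9016 and 9006, and within row 2 they were 7980 and 7448.5, so both groups had fewer in row 2. Only 2 probes were detected in all 4 control mice and no MS mouse, chr17:13020750-13033750_R and chr10:69669025-69686275_R, and 2 the other way round, chrX:96586066-96586407_F and chr8:108098325-108110775_R. All 4 were dim, with means over the 8 mice from -5.87 to -5.48, and were named after their values were seen. The probe on chrX read -5.86, -5.64 and -5.29 in 3 MS mice and -1.61 in MS mouse 7.6.

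The share detected rose with the G and C content of the probe, from 26% of the 254 probes under 30% to 81% of the 604 probes at 60% or more. For the other probes the same shares were 55.6% and 86.6%, so the difference between both kinds of probe was widest at low content. By chromosome it ran from 43.8% on chromosome 10 to 60.2% on chromosome 19. The polyadenylation hexamer AATAAA stood in 3.92% of the coordinate-named probes and in 12.6% of the others, read on the strand of the probe. On the opposite strand the hexamer stood in 3.02% and 4.03%. Detection was 52.2% with the hexamer and 52.3% without it.

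Where the interval also held a probe with a gene or transcript name on the same strand only, 64.7% of 2266 coordinate-named probes were detected, and with named probes on both strands the share was 59.2% of 525. With a named probe on the opposite strand only the share was 45% of 1971 probes, and with none it was 50.7% of 11419. The median G and C content was 45% in each of these classes. Probes of 1 interval often disagreed. Of 3382 interval strands with 3 or more probes, 956 had all probes detected, 683 had none and 1743 had some. Where all were detected, the brightest and the dimmest probe of the interval strand still differed by a median of 1.8 on the log2 scale.

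Probe sequences that occur again on the array under another name gave a direct measure of precision. Of 76 such pairs, 49 had both copies detected on at least 4 arrays, 24 had neither and 3 had 1 of them. In 40 pairs both copies were detected on all 8 arrays, and their mean signals differed by a median of 0.07 on the log2 scale, from 0.004 to 0.53. The difference varied between the 8 mice with a median SD of 0.10. Among these pairs, the member shared with Dleu2, the host of a microRNA cluster, read -2.85 against -2.78. The member of chr16:32309935-32328234_R has the same bases as the probe of Timm17b, a gene of the mitochondrial import machinery whose probe the files place on chromosome X, and the copies differed by 0.004. The name of such a probe does not tell which place in the genome gave the signal. The sequences of both are printed because they carry a name of their own elsewhere on the array.
chr14:62263564-62307496_R: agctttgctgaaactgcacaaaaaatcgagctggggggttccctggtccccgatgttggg
chr16:32309935-32328234_R: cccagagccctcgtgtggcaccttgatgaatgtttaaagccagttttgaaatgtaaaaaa

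The next question was whether both strands of an interval gave signal. Of the 1067 intervals with probes for both, 737 (69.1%) had both strands detected, 121 (11.3%) the forward strand only, 145 (13.6%) the reverse strand only and 64 (6%) neither, where a strand counts as detected on an array with any of its probes. In 545 intervals both strands were detected on all 8 arrays. The forward mean minus the reverse mean had a median size of 1.76 there, and it exceeded 2 in 241 intervals and stayed under 1 in 162. The forward strand was brighter in all 8 mice in 205 intervals, the reverse strand in 257, and in 83 the order differed between mice. The difference varied between mice with a median SD of 0.286. Between groups it differed by a median size of 0.142. These values include probes at background on a strand that was detected through other probes. With only probes detected on all 8 arrays, an alternative chosen after seeing the data, 535 intervals remained and the median size was 1.37.

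The largest differences with both strands on all 8 arrays were in 5 intervals. In chr11:22681800-22707775 forward minus reverse was -9.02 ± 0.13 (SD, n = 8), from -9.19 to -8.84, with 2 forward probes and 1 reverse probe. In chr3:146629425-146649125, which holds a forward-strand probe of the tubulin-modifying enzyme gene Ttll7, it was 8.52 ± 0.18. In chr4:136856064-136877219, with a reverse-strand probe of Cdc42, a small GTPase, it was -8.41 ± 0.33. It was 8.39 ± 0.33 in chr9:51905865-51911474 and -8.09 ± 0.11 in chr16:32309935-32328234, whose only reverse probe is the one that Timm17b shares. In each of these 5 intervals the sign was the same in all 8 mice. The intervals were chosen for the size of this difference, which is therefore a description. On the dim strand some probes were not detected on all 8 arrays in 4 of them, so their means include background and carry no fold. With only probes detected on all 8 arrays the difference was 7.86 in the interval on chr3, -7.21 on chr4, 4.59 on chr9, where 1 of 5 reverse probes was left, and -7.59 on chr16.

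In 88 intervals a probe of 1 strand was detected on all 8 arrays and no probe of the other strand on any array. The brightest of these by the strand mean was the reverse strand of chr1:193875525-193978800, at 1.83 against -7.54 for 5 forward probes. This interval holds a reverse-strand probe of Rcor3, a cofactor of transcriptional repression, and a forward-strand probe of the predicted gene Gm10516. The forward strand of chr10:97196521-97207471 read 1.69 against -7.96. The reverse strands of chr8:85952719-85958369, chr13:74568375-74601000 and chr16:4585697-4594022 read 0.40, 0.30 and 0.29 against -7.58, -7.96 and -7.56. In the last, all 5 reverse probes were detected on all 8 arrays and the array has a reverse-strand probe of the noncoding gene D330022H12Rik. The dim strand was not well above background in any mouse, so these differences carry no fold.

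Different probes of a strand differ in affinity, and 101 pairs of forward and reverse probes are exact reverse complements of each other, with the same position and the same G and C content. Both were detected on at least 4 arrays in 25 pairs, 1 of the pair in 46 and none in 30. In 10 pairs the forward probe was detected on all 8 arrays and the reverse probe on none, and in 13 pairs it was the other way round. In the 17 pairs with both on all 8 arrays the signals differed by a median of 1.17, from 0.02 to 7.71. The sequences of 5 pairs are shown, chosen after their values were seen. First come the 3 brightest with 1 strand detected on all 8 arrays and the other on none. Then follow the widest and the narrowest difference with both detected on all 8 arrays. Capitals mark the first 12 bases of the forward probe and their complement at the end of the reverse probe.
chr2:65240793-65292293_F: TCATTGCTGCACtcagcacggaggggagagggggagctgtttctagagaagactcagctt
chr2:65240793-65292293_R: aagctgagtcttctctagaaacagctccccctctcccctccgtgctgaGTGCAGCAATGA
chr14:67585234-67596823_F: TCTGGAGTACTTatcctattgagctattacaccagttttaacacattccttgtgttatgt
chr14:67585234-67596823_R: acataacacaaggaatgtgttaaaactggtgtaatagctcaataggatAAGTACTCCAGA
chr3:96074625-96086375_F: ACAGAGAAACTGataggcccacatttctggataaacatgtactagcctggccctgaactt
chr3:96074625-96086375_R: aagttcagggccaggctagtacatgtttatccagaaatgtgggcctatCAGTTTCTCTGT
chr12:82495575-82516300_F: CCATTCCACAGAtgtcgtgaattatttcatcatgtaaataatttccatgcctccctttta
chr12:82495575-82516300_R: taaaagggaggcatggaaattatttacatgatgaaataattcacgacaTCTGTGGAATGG
chr4:129497990-129515290_F: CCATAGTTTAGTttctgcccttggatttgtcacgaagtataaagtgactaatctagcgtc
chr4:129497990-129515290_R: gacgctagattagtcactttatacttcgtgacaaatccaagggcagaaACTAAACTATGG

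In chr2:65240793-65292293 the reverse probe read 2.40, 2.58, 2.55 and 2.36 in the control mice and 2.59, 2.39, 2.56 and 2.87 in the MS mice, while its complement was between -7.34 and -5.68 and not above background in any mouse. The forward probe of chr14:67585234-67596823 read 2.41, 2.48, 2.33 and 2.33 and then 2.32, 2.32, 2.35 and 2.17, with its complement between -8.42 and -7.18. In both intervals every value of the detected strand stood above every value of the other strand. In chr3:96074625-96086375 the forward probe averaged -0.22 and the reverse probe -7.67. In chr12:82495575-82516300 both strands were detected in all mice and forward minus reverse was 7.71 ± 0.25 (SD, n = 8). In chr4:129497990-129515290 it was -0.02 ± 0.13, with values on both sides of 0, so the signals of the probe and its complement did not differ beyond the spread between mice.

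Probes that overlap by at least 50 bases were compared in the same way. On the same strand, 103 of 111 such pairs (92.8%) were both detected or both not, and 59 pairs detected on all 8 arrays differed by a median of 0.162. On opposite strands, 421 of 731 pairs (57.6%) matched in detection, and 139 pairs detected on all 8 arrays differed by a median of 1.65. Pairs share intervals and are no independent replicates, so no test is given.

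**Figure D2:**
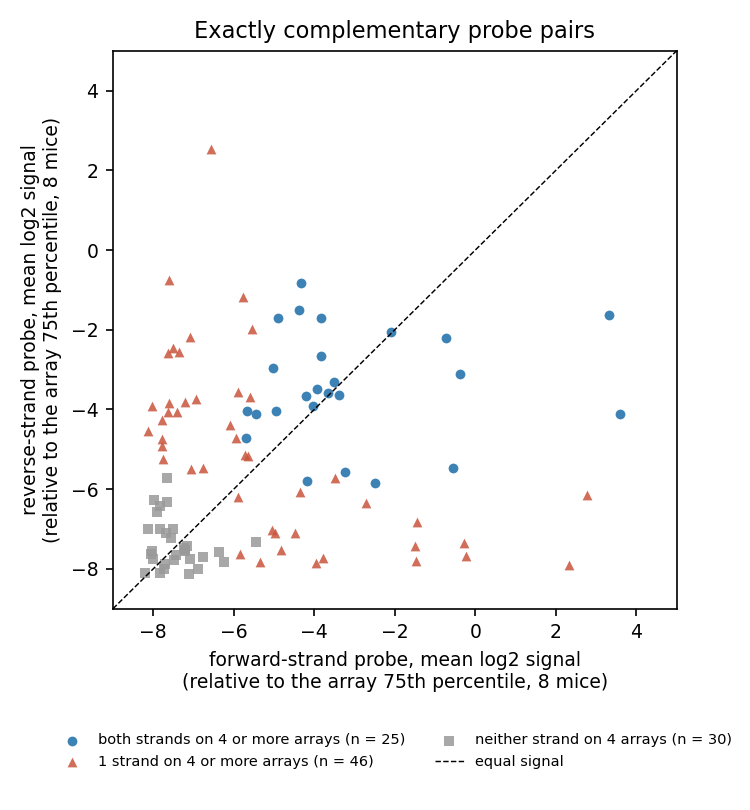
Mean log2 signal over the 8 mice, relative to the array 75th percentile, of the forward probe (horizontal axis) and the reverse probe (vertical axis) in 101 pairs of exact reverse complements, with the line of equal signal. Pairs with both strands detected (n = 25) lie on both sides of the line, and pairs with 1 strand detected (n = 46) lie along the left and lower edges.

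Several intervals hold probes of well-known noncoding RNAs. The 77.1 kb interval chr19:5771425-5848475 spans both Malat1 and Neat1, the scaffold RNA of nuclear paraspeckles, and 27 coordinate-named probes lie within it. Of 11 on the reverse strand, the strand of both genes, 10 were detected on all 8 arrays. The 3 probes of chr19:5801802-5802597_R averaged 7.80, 5.47 and 6.31, and 3 of chr19:5798135-5800557_R averaged 4.31, 4.65 and 3.81. Toward the other end of the NEAT2 transcript, which the files place at chr19:5795689-5802671, the coordinate-named probe read 0.50 and the probe named Malat1, which overlaps it, read 0.48. Reverse-strand probes within this annotated transcript, named and coordinate-named, thus ranged from 0.20 to 7.80. Of 16 probes on the forward strand, opposite to both genes, 14 were detected on all 8 arrays, the brightest at 0.84.

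**Figure D3:**
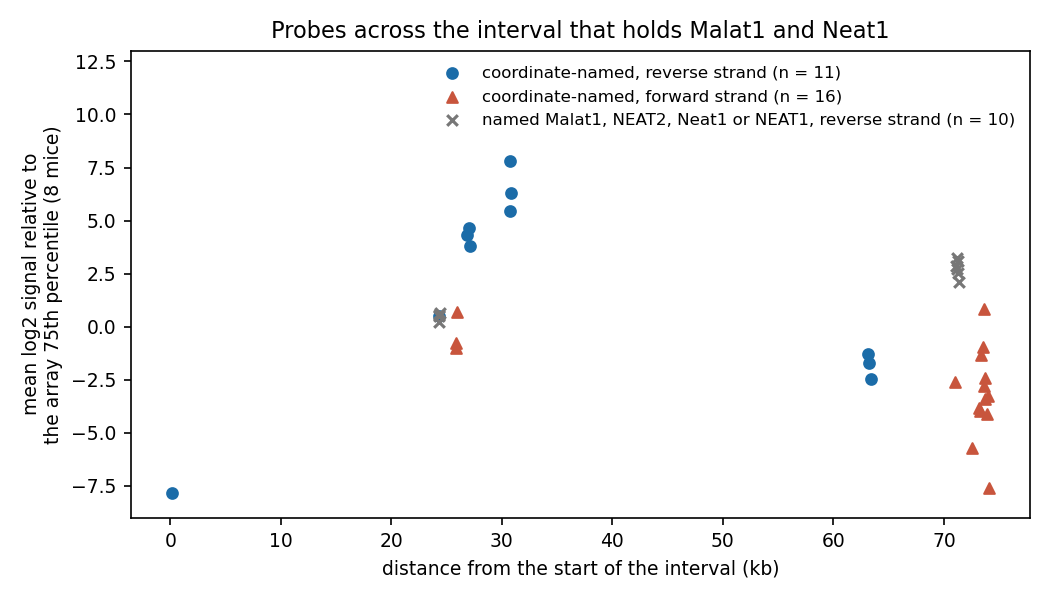
Mean log2 signal over the 8 mice, relative to the array 75th percentile, of the probes in the 77.1 kb interval around Malat1 and Neat1, against the distance from its start (kb). The brightest are 6 coordinate-named reverse-strand probes between 3.81 and 7.80, and forward-strand probes lie between -7.61 and 0.84.

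At the copy of the ribosomal RNA unit on chromosome 17, where the array has a forward-strand probe of Rn18s, the 18S ribosomal RNA, 20 coordinate-named probes lie within chr17:39960567-39992817. All 20 were detected on all 8 arrays, the 10 forward probes from 1.99 to 6.67 and the 10 reverse probes from 1.58 to 5.26. The probe of chr17:39983902-39985688_F with the bases of the clone AK145507 read 3.88, and the clone's own probe read 3.86. These probes were described together after their values were seen.

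In the intervals of Mirg, a noncoding gene that hosts microRNAs in an imprinted cluster, all 13 probes on the strand of the gene were detected on all 8 arrays, the brightest at 2.63. On the opposite strand 7 of 10 were detected on at least 4 arrays and none was brighter than -4.50. For Tug1, a conserved nuclear and cytoplasmic noncoding RNA, 14 of 15 probes on its strand were detected on at least 4 arrays, up to 2.03, and 9 of 10 on the opposite strand, up to 0.23. For Dleu2 it was 8 of 13 and 2 of 8, up to -0.69 and -4.43. Airn, the imprinted transcript antisense to Igf2r, had 4 of 4 on its strand, up to -1.52, and 1 of 1 opposite, at -3.61.

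At Gas5, Snhg3 and Tsix the brightest coordinate-named probe lay on the strand opposite to the gene, though different probes are compared there. At Gas5, a host of small nucleolar RNAs, the 2 probes on its strand reached -2.54, and 6 of 10 opposite were detected, up to -2.09, while the brightest of 3 probes named Gas5 averaged 0.78 in control and 0.84 in MS mice. At Snhg3, another such host, 1 of 2 probes on its strand was detected, at -3.40, whereas both probes opposite were, up to 2.61, and the probe named Snhg3 averaged 1.63 and 1.66. At Tsix, the transcript antisense to Xist, the probe on its strand read -3.62 and the opposite one -1.31, and the probe named Tsix was above background on no array. The interval also holds a probe of another noncoding gene, Jpx, on the strand of Tsix, 0.646 kb from the probe that read -3.62. The probe of Jpx averaged -3.99 in control and -3.95 in MS mice. At Nespas, an antisense transcript of the imprinted Gnas cluster, 5 of 6 on its strand were detected, up to -0.94, and 4 of 10 opposite, up to -2.38. The brightest Nespas-strand probe, chr2:174088550-174109425_R, read -0.57, -0.52, -0.62 and -2.91 in the control mice and -0.83, -0.77, -0.51 and -0.78 in the MS mice, so that control mouse 8.5 alone was low.

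Probes detected on all 8 arrays had a median within-group SD of 0.159 on the log2 scale against 0.117 for the other probes. The coordinate-named probes were also dimmer, with a median signal of -2.73 against -0.05. At equal signal it was 0.234 and 0.238 between -5 and -4 and 0.148 and 0.151 between -3 and -2. From -1 upward the coordinate-named probes had the higher median in each bin, with 0.126 against 0.115 between -1 and 0, 0.12 against 0.102 between 0 and 1, 0.111 against 0.0909 between 1 and 2, and 0.0951 against 0.0885 at 2 or more. MS mouse 7.6 held the highest value of the 8 mice in 22.7% of these probes and the lowest in 17.9%, and control mouse 8.5 in 18.7% and 17.6%.

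**Figure D4:**
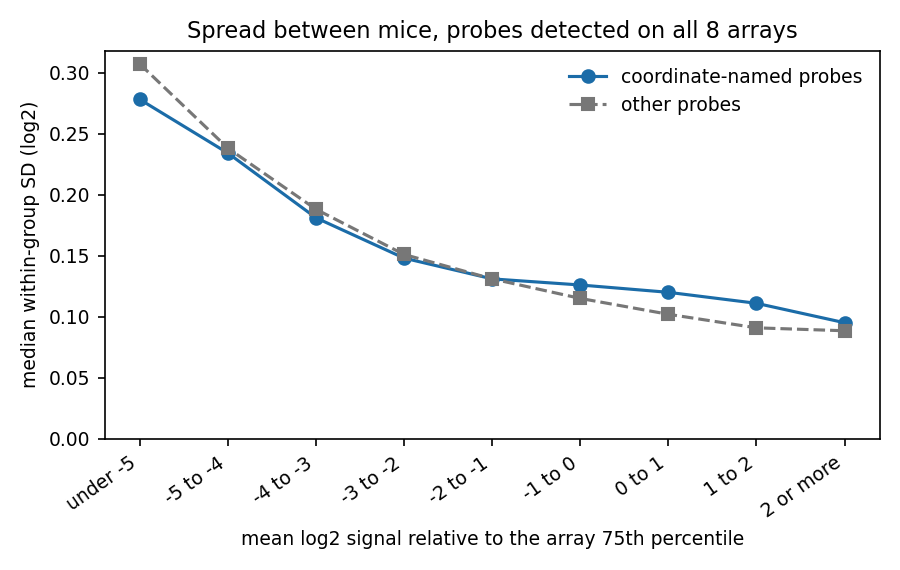
Median within-group SD (log2, vertical axis) by mean log2 signal relative to the array 75th percentile (horizontal axis, bins), for probes detected on all 8 arrays. Both curves fall with signal, for the coordinate-named probes from 0.278 under -5 to 0.0951 at 2 or more.

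Of the 6 intervals with the widest spread over the 8 mice, 5 are described. The widest, chr15:100908323-100908645_F, read 0.41, 0.40, 0.37 and -3.28 in the control mice and 0.53, 0.23, 0.38 and 0.78 in the MS mice, so 1 mouse was low. Its neighbor chr15:100908725-100908912_F read -4.75, -5.57, -5.23 and -2.62 and then -4.96, -5.43, -5.07 and -2.23, with control mouse 8.5 and MS mouse 7.6 high. The other 2 probes of the first interval had an SD over the 8 mice of only 0.11 and 0.22. The other probe of the second interval had an SD of 0.41. It too was highest in MS mouse 7.6, at -2.10 against -3.52 to -2.52 in the other mice. The sequences of both wide probes follow, since the other probes of the same interval and strand varied less.
chr15:100908323-100908645_F: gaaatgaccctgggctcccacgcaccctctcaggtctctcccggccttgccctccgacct
chr15:100908725-100908912_F: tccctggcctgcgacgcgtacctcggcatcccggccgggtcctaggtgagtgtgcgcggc

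In chr12:82495575-82516300_F the order followed the slide. The mice of row 1 read -4.91, -5.55, -5.12 and -4.47, and those of row 2 read -2.22, -3.23, -2.70 and -3.11, with control and MS mice in both rows. The other probe of that interval and strand, printed above, had an SD of only 0.10 over the 8 mice. The values of the rows did not overlap in 4.19% of the 8456 coordinate-named probes, against 4.55% of all tested probes. In chr17:66802920-66834745_F control mice 6.2 and 8.5 were high, at -2.65 and -1.97 against -5.10 to -4.41 in the other 6 mice. In chr3:19179899-19216399_R control mouse 6.2 alone was high, at -0.99 against -4.52 to -3.59.

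The comparison of MS with control mice asked whether separation in early life left a lasting difference in these transcripts in the HT. After Benjamini-Hochberg adjustment over all 37313 tested probes, 0 of the 8456 coordinate-named probes passed at 0.05 (limma), and the background is 0% over all probes. The smallest adjusted p of a coordinate-named probe was 0.901. At an unadjusted p under 0.05 there were 412 (4.87%), against 3.4% over all tested probes. Of these, 112 were higher in MS (1.32%, all probes 1%) and 300 were lower (3.55%, all probes 2.4%). The split depended on the scaling, with 161 higher and 207 lower after median scaling, 168 and 204 after quantile normalization, 127 and 134 after normexp correction, and 175 and 153 in the table of log2 values. The groups did not overlap in 209 coordinate-named probes (2.47%), against 2.03% over all probes. In 66 of them all MS mice were higher (all probes 0.788%) and in 143 all were lower (all probes 1.24%).

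The median difference, MS minus control, was -0.02 on the log2 scale over the coordinate-named probes and 0.002 over the others. The 95% confidence interval lay within a 2-fold change either way for 7754 coordinate-named probes (91.7%) and for 95.8% of the others, and within 1.5-fold for 73.9% and 87%. These intervals are each taken alone.

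The 12 probes of smallest unadjusted p, 6 in each direction, were all dim, with group means between -6.02 and -3.24. The lowest p, 4.94e-05, belonged to chr10:41368681-41393645_R, with -5.01, -5.23, -4.86 and -4.71 in the control mice and -5.79, -5.87, -5.77 and -6.05 in the MS mice, of which 2 were above background. The difference was -0.91 ± 0.12 (SE), with a limma adjusted p of 0.901. In chr1:94077196-94077860_F the control mice read -4.59, -4.68, -4.74 and -4.73 and the MS mice -5.26, -5.08, -5.26 and -5.40, a difference of -0.57 ± 0.08 with the same limma adjusted p. Among the higher probes, chr12:77544397-77564122_F, in an interval with a same-strand probe of the predicted gene Gm10451, read -3.67, -3.56, -3.70 and -3.64 and then -3.30, -3.25, -3.42 and -3.36. That difference was 0.31 ± 0.06, with a limma adjusted p of 0.989. The probe of chr3:45163252-45179177_F, 18.1 kb from a probe of the protocadherin gene Pcdh10, read -5.97, -6.03, -6.05 and -6.00 and then -5.59, -5.47, -5.17 and -5.69. It was above background in 1 control and 3 MS mice. In these 4 probes the groups did not overlap, and none passed the adjusted test. After normexp background correction the 4 differences were -0.225, -0.155, 0.151 and 0.092, and in the table of log2 values they were -0.313, -0.201, 0.23 and 0.158. Their sequences are printed as those of the smallest p in each direction.
chr10:41368681-41393645_R: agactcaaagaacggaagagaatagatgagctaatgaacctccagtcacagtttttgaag
chr1:94077196-94077860_F: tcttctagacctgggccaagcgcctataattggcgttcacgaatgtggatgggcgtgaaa
chr12:77544397-77564122_F: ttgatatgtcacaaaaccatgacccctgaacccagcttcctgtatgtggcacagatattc
chr3:45163252-45179177_F: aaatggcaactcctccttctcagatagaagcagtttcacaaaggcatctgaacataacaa

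The other 4 higher probes were, in order of p, chr15:83187786-83197712_R, chr15:79764481-79809909_F, chr9:13224147-13424397_F and chr5:67865049-67868521_F, with differences of 0.27, 0.83, 0.46 and 0.29. The second was above background in only 1 control mouse and in 4 MS mice. The third lies in an interval with a same-strand probe of Maml2, a coactivator of Notch signaling. The other 4 lower probes were chr13:48576557-48581632_R, chr8:72663625-72673010_F, chr9:113648970-113715170_F and chr9:56911160-56911452_F, at -0.47, -0.70, -0.57 and -0.61. Of these, chr8:72663625-72673010_F was above background in 4 control mice and 1 MS mouse. For chr9:113648970-113715170_F it was 3 control and 2 MS mice, and for chr9:56911160-56911452_F 4 and 3. All 30 other tested probes of the same intervals and strands differed by less than the probe named, which the choice of the named probes by p favors. In chr3:45163252-45179177_F and chr15:83187786-83197712_R no other probe was tested. In chr8:72663625-72673010_F the other 7 probes, all detected on 8 arrays, differed by -0.09 to 0.02. In chr13:48576557-48581632_R the other 4 differed by -0.32 to -0.13, all lower in MS. In chr12:77544397-77564122_F the other tested probe differed by -0.13.

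**Figure D5:**
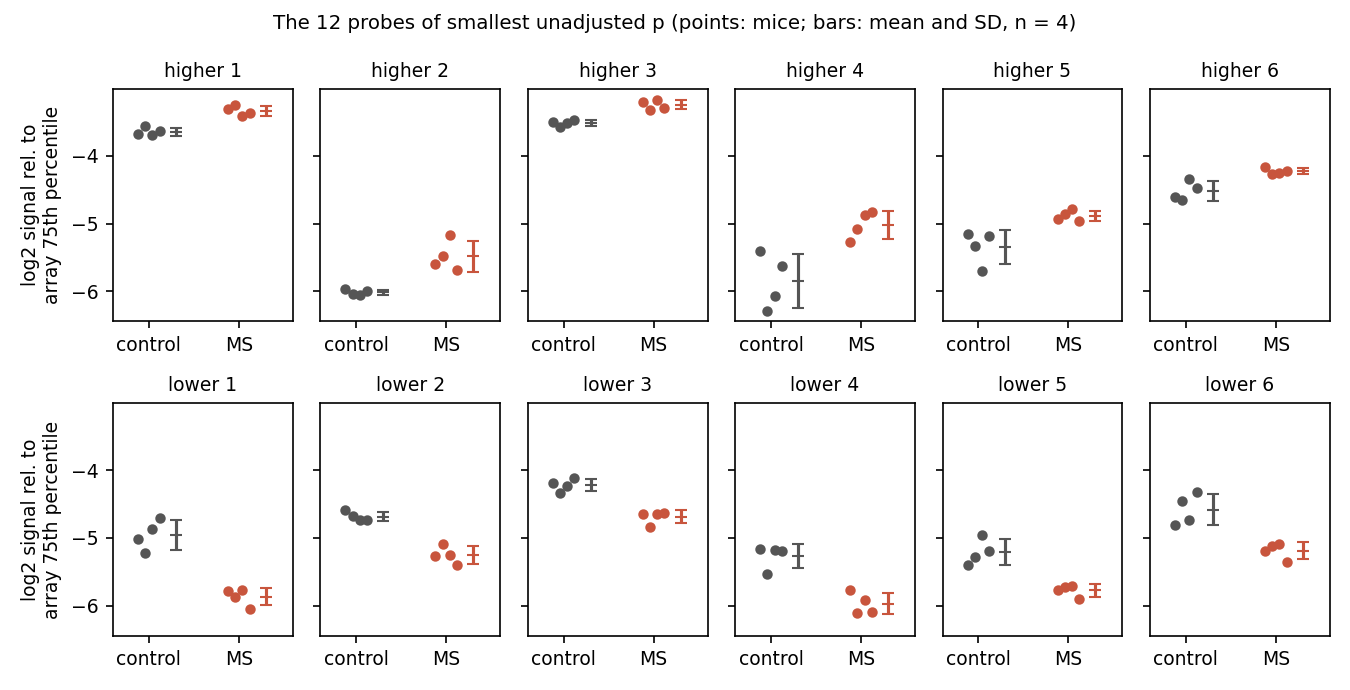
Log2 signal relative to the array 75th percentile (vertical axis) in 4 control and 4 MS mice for the 12 probes of smallest unadjusted p, with points for mice in the order of the text and bars for mean and SD. The panels higher 1 to 6 and lower 1 to 6 follow the order in which the probes are named, and the groups do not overlap in any of the panels, whose probes were chosen by p.

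The widest difference of all coordinate-named probes was that of chr2:77146893-77155643_F. It read -6.17, -6.50, -7.82 and -7.56 in the control mice, of which 1 was above background, and -5.68, -6.12, -1.96 and -1.91 in the MS mice. The 2 high values were those of MS mice 7.1 and 7.6, both of row 2, and those of MS mice 5.3 and 7.2 were close to the controls of row 1. MS minus control was 3.10 ± 1.04 (SE), with an unadjusted p of 0.0174 and a limma adjusted p of 0.989. Of its 4 fellow probes, 1 was also high in MS mouse 7.6, at -1.43 against -6.39 to -5.04 in the other 7 mice, 1 was between -4.20 and -3.28 in all mice, and 2 were below background in all. It was named after its values were seen.
chr2:77146893-77155643_F: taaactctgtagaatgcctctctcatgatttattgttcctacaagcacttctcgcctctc

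The study also drew up a list of probes in another brain region, the nucleus accumbens (NAc), from mice of the same groups. It holds probes that the paper reports as differing between MS and control mice there. The directions in the NAc were not used here. Among the coordinate-named probes 33 are on this list. In the HT, 33 were detected on at least 4 arrays and 32 on all 8. Their differences ran from -0.38 to 0.25, with a median of -0.02 beside -0.02 over all coordinate-named probes, and 0 had a limma adjusted p under 0.05. At an unadjusted p under 0.05 there were 3 (9.09%), against 4.87% of all coordinate-named and 3.4% of all tested probes. The probe of chr7:77555482-77634858_F was -0.47 ± 0.10 in control and -0.85 ± 0.29 in MS mice (SD, n = 4 each), that of chr13:108548345-108679004_R was -4.57 ± 0.06 and -4.90 ± 0.28, and that of chr9:65651848-65652920_R was -2.14 ± 0.05 and -1.90 ± 0.20. In all 3 the groups overlapped, with 1 MS mouse inside the range of the control mice. The probe on chromosome 13 was detected on 7 arrays, the others on all 8.

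Known noncoding RNA genes were also read by their own named probes. Of 34 such genes, 29 had a probe and 25 were tested, and 0 had a limma adjusted p under 0.05 or an unadjusted p under 0.05. Their differences ran from -0.23 to 0.17 with a median of -0.01. Meg3, a maternally expressed noncoding RNA, averaged 6.48 in control and 6.41 in MS mice, Malat1 0.51 and 0.46, Neat1 3.28 and 3.21, and Snhg11, a neuronal host of small nucleolar RNAs, 6.57 and 6.56.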

How the data were processed

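Labelled RNA from each HT (200 ng) was read on 1 Agilent array. The authors deposited 1 scanner file per mouse from Agilent Feature Extraction 10.10.1.1, with a background-corrected intensity for every spot. They also deposited a table of log2 values, with normalization not given in the sources used here, which served as an alternative. Positions and sequences of probes are those of the deposited array files, on mm9. The files name another array design than the paper's methods.

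After control and outlier spots were dropped, spots of a probe were averaged as log2 intensity and each array was centred on its 75th percentile. Groups come from the sample titles. Probes that 4 or more arrays measured well above background were compared, two-sided, with limma 3.58.1 (R 4.3.3) and Benjamini-Hochberg adjustment over all tested probes, without replicate block. The code was tested on simulated data. Other steps used Python 3.11.15 and scipy 1.17.1. A strand's value is the mean of its probes.

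Named by rule, chromosome 18 left out, were the 8 intervals with the brightest probes, the 6 tested probes of smallest p in each direction, the 5 widest strand differences of each kind, the 6 widest spreads, intervals of listed noncoding genes, and probes of the NAc list on all 8 arrays. Of these, 1 of the brightest and 1 of the widest spreads are not reported here. Items named beyond this rule were chosen after their values were seen. Members, lists and rules were chosen with earlier results of these data known. The number of arrays limits the precision.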

Additional observations from a re-analysis of the deposited data

Results flagged for a closer look

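For the coordinate-named probes described above, singly, as members of a locus or as other probes of a named interval, 200 groups of 4 mice with the probe above background in all 4 were examined. In 11 of them 1 mouse stood far from the other 3, by the gap to the nearest value as a share of the range of the group. Chance gives about 1 such group in 20, a rate that does not apply to probes picked for their spread, as in chr15 and chr3 below, or for their p. In chr10:69669025-69686275_R the share was 0.89 in the control group, with -4.13 in control mouse 8.5 against -5.96 to -5.76. In chr13:48576557-48581632_R the share was 0.889 in the MS group, with -4.83 in MS mouse 7.2 against -4.65 to -4.63. In chr14:67585234-67596823_F the share was 0.839 in the MS group, with 2.17 in MS mouse 7.6 against 2.32 to 2.35. In chr15:100908323-100908645_F the share was 0.989 in the control group, with -3.28 in control mouse 8.5 against 0.37 to 0.41. In chr15:100908725-100908912_F the share was 0.853 in the MS group, with -2.23 in MS mouse 7.6 against -5.43 to -4.96. In another probe of the interval strand chr17:66802920-66834745_F than the wide one the share was 0.942 in the control group, with -4.01 in control mouse 6.2 against -4.85 to -4.80. In chr2:174088550-174109425_R the share was 0.958 in the control group, with -2.91 in control mouse 8.5 against -0.62 to -0.52. In chr3:19179899-19216399_R the share was 0.917 in the control group, with -0.99 in control mouse 6.2 against -4.39 to -4.11. In chr4:131905739-131910814_R the share was 0.877 in the control group, with -3.20 in control mouse 8.4 against -3.49 to -3.46. In chr8:72663625-72673010_F the share was 0.943 in the control group, with -5.53 in control mouse 8.4 against -5.19 to -5.17. In chrX:96586066-96586407_F the share was 0.866 in the MS group, with -1.61 in MS mouse 7.6 against -5.86 to -5.29.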

How the results depend on the processing

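No paired analysis was possible because the labels give the groups no shared replicate numbers. At an adjusted p under 0.05 the count of coordinate-named probes stayed at 0 under every alternative except slide row 2 alone, where it was 1. That probe, chr2:77146893-77155643_F, differed there by 5.754 with a limma adjusted p of 0.0392, where the control mice read -7.82 and -7.56 and only 1 of all 4 control mice was above background, so this carries no fold, against 0.438 at the other end of its range over the alternatives. At an unadjusted p under 0.05 the count was 412 (4.87%, other probes 2.97%). It became 261 after normexp correction (3.09%, other probes 2.59%) and 668 in row 1 alone (7.9%, other probes 4.54%). It was 1089 when mice sharing the first number of their name formed a random block (12.9%, other probes 7.9%). Each first number occurs in 1 group only. The correlation fitted within these blocks was not examined, so the higher count is not read as a stronger difference. With 1 value per interval and strand the count was 180 of 3454 (5.21%, other probes 3.16%). Leaving out 1 mouse at a time gave 385 to 525 (4.55% to 6.21%, other probes 2.55% to 4%). The share of higher probes was 27.2%, and 39.8% without MS mouse 7.2. Detection was 8456 probes at 4 or more arrays, 6516 at all 8 and 10797 at 1 or more, and 8079 to 8421 with 1 mouse left out. There 4 of the remaining arrays were still required, a stricter rule under which a count cannot rise. With 1 mouse left out, both strands were detected in 706 to 735 intervals under the same stricter rule. The median size of forward minus reverse was then 1.72 to 1.8 and the median spread 0.145 to 0.163. The median size of forward minus reverse fell from 1.76 to 0.777 after normexp correction and to 1.37 with only probes detected on all 8 arrays, an alternative added after seeing the data, and the median spread from 0.159 to 0.0999. The normexp alternative added an offset of 50 to the intensities, which narrows log2 differences between dim values, and was followed by quantile normalization. The part of each step was not tested. The 12 probes of smallest p kept their direction under every alternative in which each was fitted. Single probes were not fitted with 1 value per interval and strand, and the dimmest not under the stricter filters. The 12 were chosen by p and their groups did not overlap. With 1 mouse left out or 1 row alone their direction therefore could not change. Normexp correction shrank all 12 differences by more than 1.5 times, and the ends of their ranges nearest to 0 were 0.092 among the higher and -0.12 among the lower.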
